A study of Mus musculus with 7 samples.

Results

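Axon guidance genes are described here in the cerebral cortex of mice at postnatal day 7, the age at which cortical axons are still growing, pruning and choosing partners. The genes were chosen by symbol alone: semaphorins of classes 3 to 7, plexins, neuropilins, ephrins and Eph receptors, Slit and Robo genes, netrins and netrin-Gs, Dcc and the Unc5 receptors. This gave 71 rows of the 56941 in the deposited table, 37 genes for ligands and 34 for receptors, each symbol on a single row. RNA sequencing was done on fresh cortex of 3 P213L samples, from mice that carry the P213L variant of Hnrnph2, and of 4 wild-type (WT) samples. Hnrnph2 encodes an RNA-binding protein that acts in splicing. The labels give no strain, sex, zygosity or litter or whether each sample is its own animal. The p-values therefore cover only sample-to-sample spread, which may be technical. The series is titled for oligodendrocyte differentiation and myelination, and no question about axon guidance is stated in the labels.

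Guidance cues steer the growing tip of an axon by binding receptors that act on its cytoskeleton. Semaphorins signal through plexins, the secreted class 3 members with neuropilins as partners. Ephrins sit on cell membranes and bind Eph receptor tyrosine kinases on neighbouring cells. Slits repel through Robo receptors, and netrins attract through Dcc or repel through Unc5 receptors.

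Values are TPM (transcripts scaled to a fixed total in each library), which are scaled to gene length, so levels of different genes can be set side by side. TPM keeps no read total, so the depth behind each value is unknown and no counting interval is given. The tissue label was checked against 8 markers of neurons and cortical excitatory cells, whose summed level was 6721 to 7053 TPM in P213L and 6476 to 7192 TPM in WT. WT replicate 2 also held choroid plexus transcripts: the 8 markers of that tissue summed to 1253 TPM there, against 5.63 to 10.8 TPM in the other 6 libraries. Without WT replicate 2, 67 of the 69 guidance genes tested had log2 fold changes above 0 (65.8% of all genes), and 11 had P213L values above all WT values (7.99% of all genes). WT replicate 3 stood apart more widely, with 28367 rows above 0 against 31387 to 32526 in the other 6 libraries. Its marker sums differed too, at 902.8 TPM for erythroid cells (415.0 to 600.1 TPM in the other 6), 2456 TPM for inhibitory neurons (1614 to 1812 TPM) and 1249 TPM for astrocytes (1511 to 1803 TPM), and their part in its guidance gene values was not tested. It touches nearly every value below: it was the lowest of all 7 samples for 66 of the 69 guidance genes tested (95.7%), against 55.1% of all 17582 genes tested. The median guidance gene lay 0.80 lower there on the log2 scale than in the mean of the other 3 WT samples, and the median of all tested genes 0.30 lower. Guidance genes are long, with a median exon length of 6855 bases against 3848 over all tested genes with a length, and all tested genes of at least that guidance median lay 0.71 lower in WT replicate 3, shorter genes 0.18 lower. The part of gene length in the results was not tested beyond removing a trend on it.

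Ephrin-B3 had the highest level of all 71 genes, and was followed by the ligands Sema7a and Sema6b and the receptors Ephb6 and Plxnd1. The lowest were Epha1, at 0.3005 to 0.601 TPM in P213L and 0.203 to 0.411 TPM in WT, and Ntn5, at 0.617 to 0.764 TPM in P213L and 0.285 to 0.944 TPM in WT. These last genes had a mean under 1 TPM and were not tested, which left 36 ligands and 33 receptors. Summed over the 71 genes, guidance transcripts held 3467, 3424 and 3585 TPM in P213L replicates 1 to 3, against 3584, 3197, 1906 and 3239 TPM in WT replicates 1 to 4. The groups overlapped, with WT replicate 1 as high as the highest P213L sample and WT replicate 3 far below the rest.

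**Figure D1:**
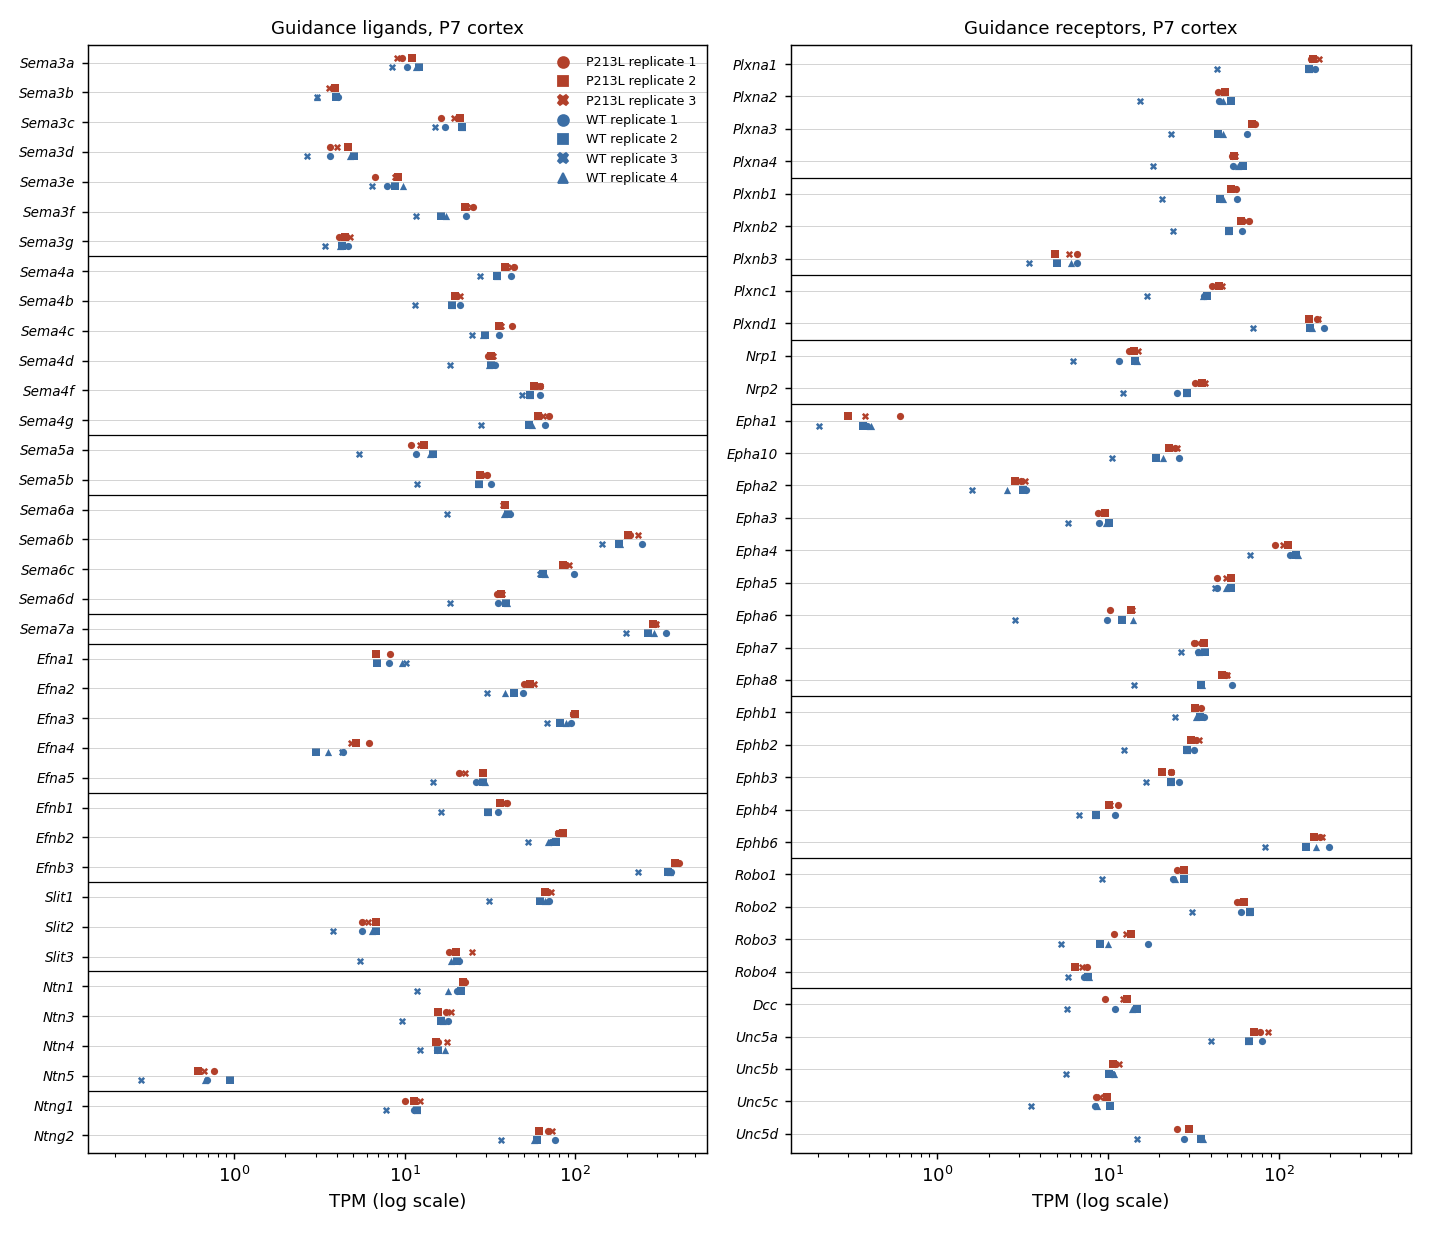
Level of every guidance gene in each sample, in TPM on a log axis, with P213L samples in red above WT samples in blue and horizontal lines between families. WT replicate 3 (blue X) lies lowest for most genes, while the 3 P213L samples and the other WT samples lie close together.

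No guidance gene passed an adjusted p of 0.05 in limma (0 of 69, as for 0 of all 17582 genes, a background of 0%). The smallest adjusted p among them was 0.827. Without adjustment, 5 genes had a limma p under 0.05, all higher in P213L, where 2.36% of all genes tested were higher and 1.38% lower by this measure. They were Efna4, Sema4c, Efna2, Plxna3 and Sema3f. All P213L values lay above all WT values for 10 of the 69 genes, or 14.5%, against 5.94% of all genes tested. The reverse order was seen for 0 of the 69, against 2.75% of all genes. These 10 were Efna2, Efna3, Efna4, Efnb1, Efnb2, Efnb3, Ntn1, Plxna3, Plxnc1 and Nrp2. Among them were 6 of the 8 ephrins and 4 of the other 61 tested guidance genes. The share of those other genes was near the 5.94% of all genes tested. Ephrins were set apart from the other guidance genes after these values were seen. Exact permutation p-values for the 10 ran from 0.0286, the smallest that 35 arrangements of 3 and 4 samples allow, to 0.143.

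For 64 of the 69 genes the log2 fold change of P213L over WT was above 0, against 63.4% of all genes. The median was 0.27 for guidance genes and 0.07 for all genes. Most of this lean depended on WT replicate 3. Without that library 42 of the 69 lay above 0, against 49.6% of all genes, and 27 below, against 50.4%, and the median was 0.04, against -0.002 over all genes. With median-of-ratios scaling, which centres each library on its typical gene, 56 lay above 0 (81.2%, against 49.1% of all genes), and 50 with quantile normalization (72.5%, against 48.6%). With a trend on exon length removed, 49 lay above 0 (71%, against 49.5% of all genes), and the median was 0.15. Groups that do not overlap cannot come to overlap when a sample is left out, so the 10 genes stay apart without WT replicate 3 by construction. Their number was 10 without it too, where 7.33% of all genes were higher by that measure and 6.89% lower, and most of their fold changes were smaller. Without it 11 genes were higher at an unadjusted limma p under 0.05 (background 4.7%) and 1 was lower (background 3.99%). None passed adjustment in limma, where the smallest adjusted p of a guidance gene was 0.484 for Nrp2. With sample weights estimated from the data in limma, 24 of the 69 were higher past an adjusted p of 0.05 and 5 lower, where 13.3% of all genes were higher and 9.3% lower. With these weights 47 lay above 0 (background 49.9%) and 22 below (background 50.1%). The weights ran from 0.0431 for WT replicate 3 to 6.9 for P213L replicate 3, with 5.24 for WT replicate 4. All other samples had weights of 0.441 to 1.25. The weighted calls therefore rest mostly on P213L replicate 3 and WT replicate 4.

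**Figure D2:**
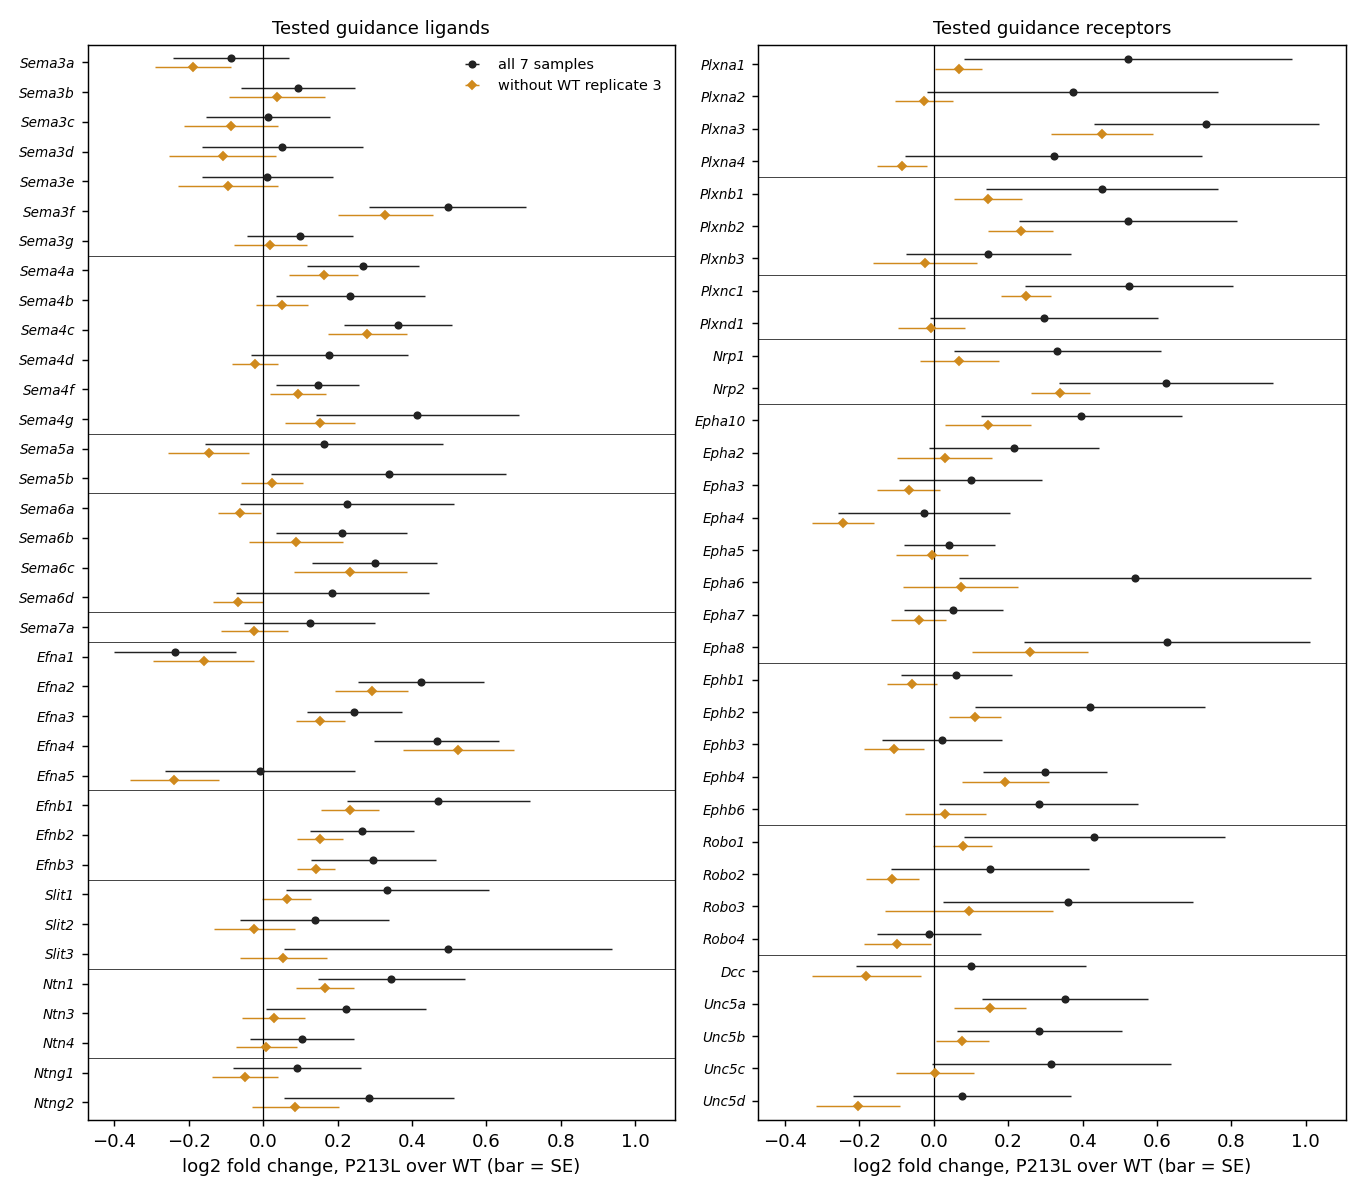
Log2 fold change of P213L over WT for each tested guidance gene, with its SE, from all 7 samples (black circles) and without WT replicate 3 (orange diamonds). Most black points lie right of 0, while 42 of the 69 orange points do, and the SE is smaller without that library.

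Ephrins made up 6 of the 10 genes whose groups did not overlap. Ephrin-A proteins hang on the membrane by a lipid anchor, whereas ephrin-Bs span it and carry a tail that signals into their own cell. Summed over the 8 genes, ephrin transcripts held 706.4, 697.1 and 697.2 TPM in P213L, against 651.8, 622.0, 428.8 and 626.3 TPM in WT replicates 1 to 4. All P213L sums lay above all WT sums, with no test made of a sum. Efnb3 alone held 382.6 to 405.5 TPM of the sum in P213L and 232.0 to 362.1 TPM in WT. The sum therefore follows mostly that gene, and the groups overlapped for Efna1 and Efna5.

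Efnb3, an ephrin that stops corticospinal axons from recrossing the midline (mm10, chromosome 11, 69554092 to 69560205, minus strand), stood at 405.5, 382.6 and 391.5 TPM in P213L, against 362.1, 350.6, 232.0 and 356.5 TPM in WT. The P213L samples were the 3 highest, and the gap to WT replicate 1 was small. The log2 fold change was 0.30 ± 0.17, and 0.14 ± 0.05 without WT replicate 3 (SE), and limma gave an adjusted p of 0.827. Efnb2, which marks arteries as well as neurons (chromosome 8, 8617434 to 8661242, minus strand), stood at 79.1, 84.1 and 79.5 TPM in P213L, against 72.2, 76.7, 53.1 and 69.3 TPM in WT. Its log2 fold change was 0.27 ± 0.14, and 0.15 ± 0.06 without WT replicate 3 (SE). The X-linked Efnb1, an ephrin of neural progenitors (99136130 to 99148991, plus strand), stood at 39.9, 36.1 and 37.6 TPM in P213L, against 35.2, 30.5, 16.4 and 30.7 TPM in WT. Here too every P213L sample exceeded every WT sample, with WT replicate 1 within 1 TPM of the lowest of them. The log2 fold change was 0.47 ± 0.25, and 0.23 ± 0.08 without WT replicate 3 (SE).

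Among the ephrin-As, Efna2 (chromosome 10, 80179482 to 80190010, plus strand) stood at 50.3, 54.1 and 57.0 TPM in P213L, against 49.5, 43.9, 30.2 and 38.6 TPM in WT. WT replicate 1 lay just below the lowest P213L sample. For Efna2 the log2 fold change was 0.42 ± 0.17, and 0.29 ± 0.10 without WT replicate 3 (SE), with an unadjusted limma p of 0.0382 with all samples. Efna4 (chromosome 3, 89333390 to 89338028, minus strand), of low level, stood at 6.18, 5.20 and 4.87 TPM in P213L, against 4.34, 3.003, 4.31 and 3.55 TPM in WT. WT replicate 3 was not its lowest sample, and its fold change was 0.47 ± 0.17 with all samples and 0.52 ± 0.15 without that library (log2, SE). With median-of-ratios scaling its groups overlapped. The neighbouring Efna3 (89313899 to 89322965, minus strand) stood at 96.5, 99.6 and 97.2 TPM in P213L, against 94.2, 81.5, 68.0 and 88.4 TPM in WT, a log2 fold change of 0.25 ± 0.13 with all samples and 0.15 ± 0.07 without WT replicate 3 (SE).

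The other ephrin-As did not share this order. Efna1, at the same locus as Efna3 and Efna4 and well expressed in endothelium, stood at 8.18, 6.74 and 6.80 TPM in P213L, against 8.03, 6.89, 10.2 and 9.66 TPM in WT, so the groups overlapped and WT replicate 3 was the highest sample. Efna5, which sets topographic maps of sensory axons, stood at 20.7, 28.6 and 22.6 TPM in P213L and 26.2, 28.8, 14.6 and 29.5 TPM in WT. Its P213L values lay within the WT range.

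The stretch just before the start of 4 of the 6 ephrins is shown to let their promoters be compared, for those with a single start in RefSeq's table (GRCm38.p6, which is mm10). Each is the 250 bases before the RefSeq start, 5′ to 3′ on the gene's strand, with GC boxes (GGGCGG on either strand, a site for Sp family factors) in capitals. They cover chr10:80179232-80179481 (plus strand) for Efna2, chr3:89338029-89338278 (minus) for Efna4, chrX:99135811-99136060 (plus) for Efnb1 and chr8:8661243-8661492 (minus) for Efnb2. The RefSeq start of Efnb1 lies upstream of the gene start given above, with 69 bases between the end of the stretch and that start, while the other 3 stretches abut theirs.
Efna2: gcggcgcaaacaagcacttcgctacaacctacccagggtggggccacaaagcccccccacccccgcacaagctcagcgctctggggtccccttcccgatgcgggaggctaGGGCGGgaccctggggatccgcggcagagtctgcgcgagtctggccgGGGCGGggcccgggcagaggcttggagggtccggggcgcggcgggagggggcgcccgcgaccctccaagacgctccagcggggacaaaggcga
Efna4: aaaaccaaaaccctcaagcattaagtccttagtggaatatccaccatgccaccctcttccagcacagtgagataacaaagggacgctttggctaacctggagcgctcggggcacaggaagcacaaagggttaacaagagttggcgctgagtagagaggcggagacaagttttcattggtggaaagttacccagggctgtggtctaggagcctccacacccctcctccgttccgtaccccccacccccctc
Efnb1: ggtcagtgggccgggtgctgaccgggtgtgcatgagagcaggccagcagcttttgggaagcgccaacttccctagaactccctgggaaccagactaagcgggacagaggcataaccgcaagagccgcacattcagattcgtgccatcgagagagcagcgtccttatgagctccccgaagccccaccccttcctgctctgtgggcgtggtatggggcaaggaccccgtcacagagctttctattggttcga
Efnb2: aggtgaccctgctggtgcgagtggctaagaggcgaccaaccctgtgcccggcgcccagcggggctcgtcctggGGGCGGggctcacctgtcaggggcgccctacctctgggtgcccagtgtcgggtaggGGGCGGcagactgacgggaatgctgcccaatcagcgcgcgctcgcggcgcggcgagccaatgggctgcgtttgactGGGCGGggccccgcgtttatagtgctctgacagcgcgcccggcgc

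The 4 stretches differed in the motifs they hold. Efna2 has 2 GC boxes and Efnb2 has 3, while Efna4 and Efnb1 have none. A CCAAT box (CCAAT on either strand) occurs 2 times before Efnb2 and 1 time each before Efna4 and Efnb1, and a TATA box (TATAAA on either strand) only before Efnb2 among these 4, where it is on the opposite strand and reads TTTATA. GC content was 73.6% for Efna2, 72% for Efnb2, 60% for Efnb1 and 54.4% for Efna4. The table holds 77 starts for 61 of the 71 guidance genes, of which 70.1% had a GC box in the 250 bases, 27.3% a CCAAT box and 2.6% a TATAAA, against 32.7%, 33.8% and 12.4% of all 32851 starts in it. Median GC content was 64.4% for the guidance starts and 52.4% for all starts, and its part in these shares was not tested. A match is a run of letters and was not tested as a site.

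**Figure D3:**
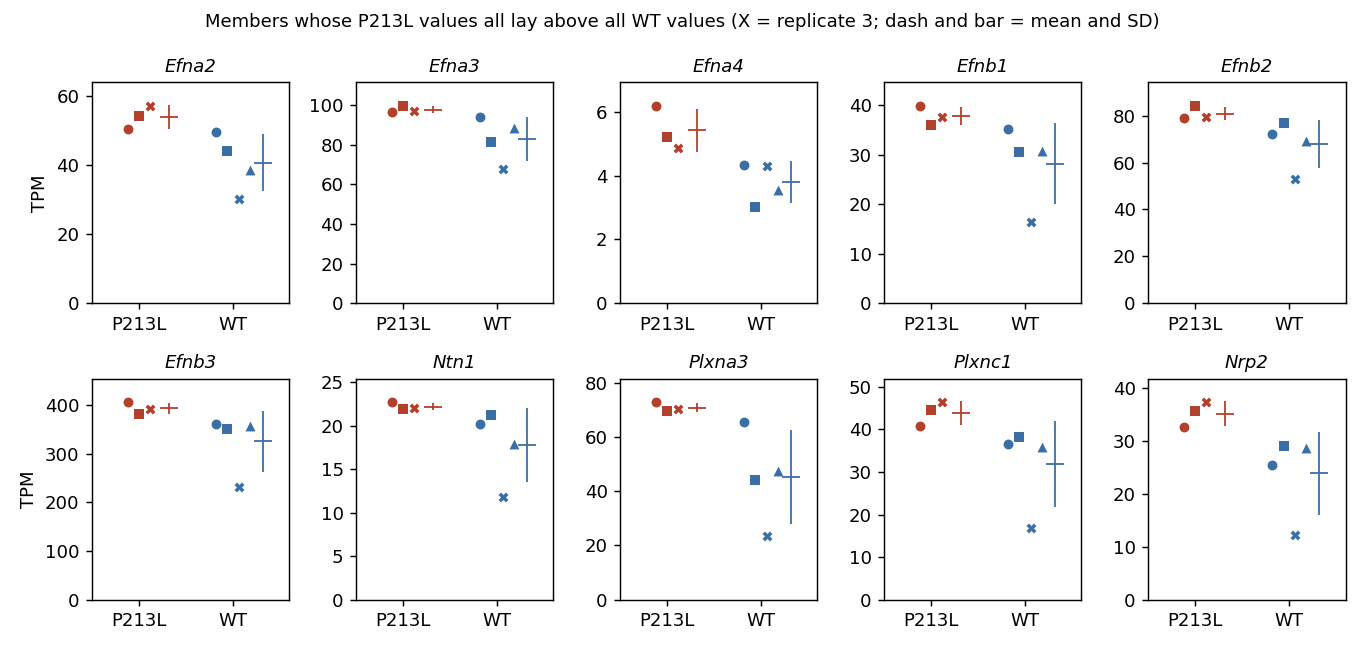
TPM per sample of the 10 guidance genes whose P213L values (red) all lay above all WT values (blue), with a dash and bar for the mean and SD beside the points (n = 3 and 4). In 9 of the 10 panels WT replicate 3 (blue X) is the lowest point, and the gap between the P213L samples and the nearest WT sample is small.

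The groups overlapped for the Eph receptors. Of 13 tested, 0 had groups that did not overlap (5.94% of all genes were higher and 2.75% lower by this measure, so a count of 0 in a family of this size is near the background), and their summed level was 544.5 to 569.9 TPM in P213L and 316.9 to 598.5 TPM in WT. Ephb6, an EphB with no kinase activity, was the most abundant receptor gene, at 172 ± 8.81 TPM in P213L (SD, n = 3) and 148 ± 48.0 TPM in WT (SD, n = 4). Ephb1 and Ephb2, the active receptors for ephrin-B on cortical axons and dendrites, stood at 33.3 ± 1.41 and 32.4 ± 1.67 TPM in P213L and at 32.2 ± 5.25 and 25.6 ± 8.90 TPM in WT. Ephb3 stood at 22.5 ± 1.56 TPM in P213L and 22.4 ± 4.002 TPM in WT, and Ephb4, a receptor of veins, at 10.7 ± 0.692 and 8.67 ± 1.76 TPM (SD, n = 3 and 4).

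Epha4, which binds ephrins of both classes and guides corticospinal axons, led the EphAs. It stood at 94.8, 113.9 and 106.7 TPM in P213L, against 116.1, 126.8, 67.7 and 130.5 TPM in WT. The P213L values lay below WT replicates 1, 2 and 4 and above WT replicate 3. Its log2 fold change was -0.03 ± 0.23 with all samples and -0.24 ± 0.08 without WT replicate 3 (SE; limma adjusted p = 0.973 and 0.527), where it was the guidance gene with lower values in every P213L sample. It was singled out after its values were seen.

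Other EphAs spanned a wide range of levels. Epha5 stood at 48.3 ± 4.54 TPM in P213L and 47.0 ± 4.85 TPM in WT, and Epha7 at 34.0 ± 2.37 and 32.9 ± 4.29 TPM (SD, n = 3 and 4). These receptors, which with ephrin-A5 shape thalamocortical maps, overlapped between groups. Epha8 stood at 49.5, 46.6 and 49.7 TPM in P213L, against 53.5, 35.1, 14.2 and 35.5 TPM in WT, so that WT replicate 1 alone exceeded the P213L samples. Epha10, which lacks kinase activity, stood at 22.7 to 25.3 TPM in P213L and 10.6 to 25.95 TPM in WT. Epha6, Epha3 and Epha2 averaged 12.6, 9.13 and 3.08 TPM in P213L and 9.69, 8.66 and 2.66 TPM in WT.

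Semaphorins showed 0 of 20 genes whose groups did not overlap (background 5.94% higher and 2.75% lower). Their summed level was 1010 to 1072 TPM in P213L and 665.8 to 1137 TPM in WT. Of the class 3 ligands, which are secreted, Sema3f, the repellent that acts through Nrp2, stood at 25.1, 22.5 and 23.1 TPM in P213L, against 23.0, 16.3, 11.6 and 17.4 TPM in WT. WT replicate 1 lay among the P213L samples and the other WT samples lay below. The log2 fold change was 0.50 ± 0.21, and 0.33 ± 0.13 without WT replicate 3 (SE). Unadjusted limma p-values were 0.0472 and 0.0357, and the exact permutation p with all samples was 0.0857. Sema3a, the repellent that acts through Nrp1, stood at 9.90 ± 1.00 TPM in P213L and 10.6 ± 1.68 TPM in WT, and Sema3c, which draws cortical axons, at 18.9 ± 2.42 and 18.9 ± 3.30 TPM (SD, n = 3 and 4). Sema3e, the ligand of plexin-D1, stood at 8.23 ± 1.31 TPM in P213L and 8.18 ± 1.40 TPM in WT. Sema3b, Sema3d and Sema3g averaged 3.78 to 4.46 TPM in P213L and 3.53 to 4.15 TPM in WT.

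Class 4 to 7 semaphorins are tied to the membrane, and several signal through plexin-Bs. Sema4c stood at 42.5, 35.7 and 36.5 TPM in P213L, against 35.9, 29.7, 24.7 and 28.8 TPM in WT. The groups met at 1 point, WT replicate 1 above P213L replicate 2. The log2 fold change was 0.36 ± 0.15, and 0.28 ± 0.11 without WT replicate 3 (SE). Unadjusted limma p-values were 0.0374 and 0.0319, and the exact permutation p with all samples was 0.0857. Sema4f and Sema4g led the class, at 60.5 ± 2.73 and 65.0 ± 4.65 TPM in P213L and 54.8 ± 5.60 and 50.9 ± 16.2 TPM in WT. Sema4a stood at 41.4 ± 2.50 TPM in P213L and 34.6 ± 5.95 TPM in WT (SD, n = 3 and 4). Sema4d, the plexin-B1 ligand, and Sema4b averaged 31.97 and 20.31 TPM in P213L and 29.0 and 17.6 TPM in WT.

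The most abundant semaphorin, Sema7a, which has a lipid anchor and binds plexin-C1 and integrins, stood at 293.7, 286.6 and 298.3 TPM in P213L, against 339.7, 267.6, 197.2 and 290.1 TPM in WT. The P213L samples lay in the middle of the WT range. Sema6b followed at 209.0, 202.0 and 233.6 TPM in P213L, against 247.1, 181.1, 143.8 and 183.2 TPM in WT, again with WT replicate 1 highest. Sema6c, of the same class, stood at 88.2 ± 3.53 TPM in P213L and 72.8 ± 16.9 TPM in WT. Sema6a and Sema6d, ligands of plexin-A2, plexin-A4 and plexin-A1, stood at 38.2 ± 0.377 and 36.2 ± 1.34 TPM in P213L and 34.4 ± 11.2 and 33.1 ± 9.94 TPM in WT (SD, n = 3 and 4). Of class 5, Sema5b stood at 29.2 ± 1.33 TPM in P213L and 24.5 ± 8.81 TPM in WT, and Sema5a at 12.02 ± 1.09 and 11.4 ± 4.21 TPM.

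Among the semaphorin receptors, Plxna3, a partner of neuropilins in axon pruning, had the largest log2 fold change of the 69 tested genes. It is X-linked (74329066 to 74344689, plus strand) and stood at 72.7, 69.5 and 70.2 TPM in P213L, against 65.5, 44.3, 23.4 and 47.5 TPM in WT. WT replicate 1 was closer to the P213L samples than to the other WT samples. In log2 terms the fold change was 0.73 ± 0.30, and 0.45 ± 0.14 without WT replicate 3 (SE). Unadjusted limma p-values were 0.0425 and 0.0122, and the exact permutation p with all samples was 0.0571.

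Nrp2, the Sema3f receptor (chromosome 1, 62703285 to 62818695, plus strand), stood at 32.6, 35.6 and 37.2 TPM in P213L, against 25.4, 28.9, 12.3 and 28.6 TPM in WT. Here WT replicate 1 was not near the P213L samples. The log2 fold change was 0.62 ± 0.29, and 0.34 ± 0.08 without WT replicate 3 (SE). Unadjusted limma p-values were 0.0633 and 0.00326, and the exact permutation p with all samples was 0.0857. Nrp1, the Sema3a receptor, which also marks vessels, overlapped, at 13.3, 14.2 and 15.1 TPM in P213L and 11.5, 14.4, 6.25 and 14.8 TPM in WT. Plxnc1, the Sema7a receptor (chromosome 10, 94790866 to 94944835, minus strand), stood at 40.9, 44.7 and 46.4 TPM in P213L, against 36.6, 38.2, 16.9 and 35.9 TPM in WT. Its log2 fold change was 0.52 ± 0.28, and 0.25 ± 0.07 without WT replicate 3 (SE).

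The other plexins overlapped between groups. Plxnd1, a plexin of vessels and of some cortical neurons, stood at 163 ± 10.1 TPM in P213L and 141 ± 49.3 TPM in WT, and Plxna1 at 163 ± 8.50 and 127 ± 56.2 TPM (SD, n = 3 and 4). Plxna4 and Plxna2 stood at 54.6 ± 1.11 and 47.1 ± 2.61 TPM in P213L and at 48.1 ± 20.2 and 40.0 ± 16.6 TPM in WT. These 4 were spread mainly by WT replicate 3, and without it their log2 fold changes ran from -0.09 to 0.07. Plxnb2, a plexin of dividing progenitors, stood at 67.2, 60.5 and 64.0 TPM in P213L, against 61.4, 51.3, 24.1 and 50.7 TPM in WT. Plxnb1 averaged 54.9 TPM in P213L and 42.5 TPM in WT, and Plxnb3, which oligodendrocytes express, 5.80 and 5.30 TPM.

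**Figure D4:**
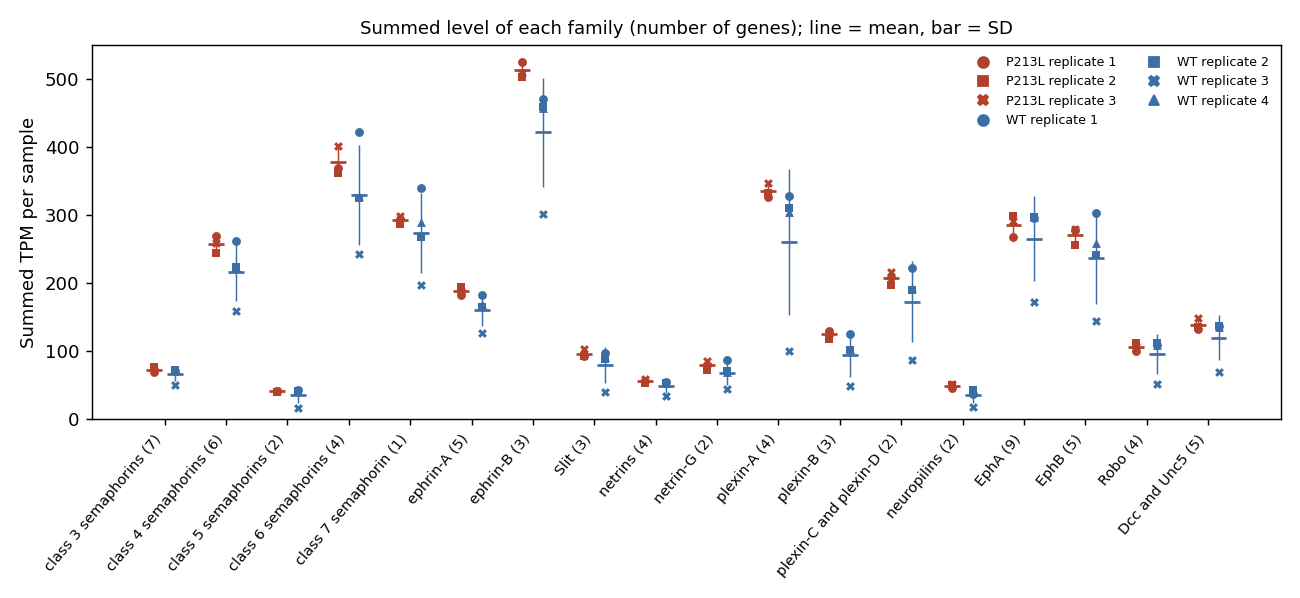
Summed TPM of each family in every sample (number of genes in brackets), with P213L in red left of WT in blue, a line for the mean and a bar for the SD (n = 3 and 4). The P213L sums lie above all WT sums for ephrin-B (502.8 to 524.5 against 301.5 to 469.5 TPM) and neuropilins (45.9 to 52.3 against 18.5 to 43.4 TPM) and overlap with them for the other families. All 3 ephrin-B genes had separate groups singly, so their sum could not overlap. Of the neuropilins, Nrp2 had separate groups and Nrp1 did not.

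Slit and Robo genes overlapped throughout, 0 of 7 with separate groups (background 5.94% and 2.75%). Slit1, the main cortical Slit at this level, stood at 69.2 ± 2.65 TPM in P213L and 57.5 ± 17.96 TPM in WT. Slit3 stood at 18.1, 19.8 and 24.7 TPM in P213L, against 20.9, 20.2, 5.47 and 18.8 TPM in WT, and Slit2 at 6.18 ± 0.617 TPM in P213L and 5.67 ± 1.32 TPM in WT (SD, n = 3 and 4). Of their receptors, Robo2 and Robo1 stood at 60.1 ± 3.23 and 27.1 ± 1.32 TPM in P213L and 56.6 ± 17.2 and 21.6 ± 8.37 TPM in WT. Robo3, which controls crossing of the midline, stood at 10.9, 13.7 and 12.8 TPM in P213L, against 17.3, 9.04, 5.28 and 9.98 TPM in WT. WT replicate 1 was the highest sample and the other WT samples lay below all P213L samples. Robo4, a receptor of endothelium, stood at 6.99 ± 0.576 TPM in P213L and 7.09 ± 0.875 TPM in WT. The 14 endothelial markers summed to 437.9 to 460.3 TPM in P213L and 429.3 to 523.4 TPM in WT.

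Ntn1, the netrin that attracts callosal and other commissural axons (chromosome 11, 68209364 to 68400823, minus strand), stood at 22.7, 21.9 and 22.0 TPM in P213L, against 20.2, 21.2, 11.8 and 17.9 TPM in WT. The groups were apart by less than 1 TPM. Its log2 fold change was 0.34 ± 0.20, and 0.17 ± 0.08 without WT replicate 3 (SE). Ntn3 and Ntn4 stood at 17.3 ± 1.54 and 16.2 ± 1.24 TPM in P213L and 15.1 ± 3.72 and 15.1 ± 2.10 TPM in WT. The netrin-Gs, membrane-anchored relatives that organise synapses, stood at 67.8 ± 5.94 TPM for Ntng2 and 11.2 ± 1.122 TPM for Ntng1 in P213L, and at 57.3 ± 16.1 and 10.6 ± 1.94 TPM in WT (SD, n = 3 and 4).

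Netrin receptors showed 0 of 5 genes with separate groups (background 5.94% and 2.75%). Dcc, the attractive receptor, stood at 9.57, 12.9 and 12.2 TPM in P213L, against 10.9, 14.8, 5.73 and 13.8 TPM in WT. Unc5a, the most abundant of the repulsive receptors, stood at 78.8 ± 7.23 TPM in P213L and 63.3 ± 16.6 TPM in WT. Unc5d, which marks migrating and upper-layer cortical neurons, stood at 25.6, 30.01 and 29.8 TPM in P213L, against 27.9, 34.9, 14.8 and 36.1 TPM in WT. Unc5b and Unc5c averaged 11.1 and 9.12 TPM in P213L and 9.31 and 7.72 TPM in WT.

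Genes that work with these cues were also counted, from lists of co-receptors and cytoplasmic effectors. In limma 0 of 23 semaphorin and plexin effectors, 0 of 20 Eph and ephrin effectors, 0 of 19 Slit, Robo and netrin effectors and 0 of 29 co-receptors and other cues passed an adjusted p of 0.05. At an unadjusted p under 0.05, 1 of the 91 genes in the 4 lists was higher and 0 were lower (background 2.36% and 1.38%). P213L values lay above all WT values for 11 of the 91, or 12.1% (background 5.94%), and below them for 1, or 1.1% (background 2.75%). Their median log2 fold changes were 0.17, 0.20, 0.22 and 0.14 with all samples (0.07 over all genes) and 0.03, -0.01, 0.01 and -0.03 without WT replicate 3. The gene with the smallest p was Draxin, a secreted protein that binds netrin and Dcc, at 25.0, 21.4 and 21.8 TPM in P213L, against 16.8, 14.99, 6.69 and 16.1 TPM in WT. All P213L values lay above all WT values, with a log2 fold change of 0.80 ± 0.30 (SE; limma adjusted p = 0.827), and 0.50 without WT replicate 3.

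The other effectors and cues with the smallest p values had smaller differences. Trim67, a ubiquitin ligase that works with Dcc, stood at 139.4, 124.8 and 130.7 TPM in P213L, against 117.3, 105.2, 53.4 and 102.9 TPM in WT. Vav2, an exchange factor recruited by Eph receptors, stood at 42.5 ± 0.930 TPM in P213L and 32.4 ± 7.91 TPM in WT, and Cntn2, an axonal adhesion protein, at 53.4 ± 1.84 and 40.0 ± 11.2 TPM (SD, n = 3 and 4). Among the 11 genes with P213L values above all WT values were these 3, Draxin, Ablim3 and Vangl2. Chn1, a Rac-inactivating protein downstream of Epha4, had separate groups in the other direction, at 79.5, 88.2 and 87.4 TPM in P213L, against 95.8, 99.1, 88.8 and 97.4 TPM in WT. On the log2 scale its fold change was -0.16 ± 0.09 (SE). Limk2, Crmp1, Mical1, Grip2 and Vasp, also among the smallest p values, had groups that overlapped, with log2 fold changes of 0.19 to 0.67 with all samples and 0.12 to 0.36 without WT replicate 3.

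Markers of other cell types were read beside these values. The 10 markers of myelinating oligodendrocytes summed to 265.7 to 284.2 TPM in P213L and 344.2 to 397.0 TPM in WT, without overlap. Those of microglia summed to 342.8 to 360.3 TPM in P213L and 363.2 to 433.6 TPM in WT, apart by a small gap. Taken singly, 6 of the 9 tested myelin markers and 1 of the 10 microglial markers had separate groups with P213L lower (background 2.75% of all genes). Median log2 fold changes were -0.48 for the myelin list and -0.08 for the microglial list. In these lists 1 of 9 and 0 of 10 lay above 0. Thalamic markers summed to 52.9 to 58.5 TPM in P213L and 44.5 to 53.3 TPM in WT, so these sums overlapped. Gbx2 lay below the filter, and 4 of 4 tested thalamic markers had log2 fold changes above 0, against 63.4% of all genes. The lists of upper-layer neurons (617.6 to 678.2 TPM in P213L and 488.1 to 648.0 TPM in WT), inhibitory neurons (1683 to 1796 and 1614 to 2456 TPM) and meningeal fibroblasts (926.8 to 1190.0 and 915.0 to 1154.0 TPM) overlapped too. Of their tested members 9 of 9, 7 of 11 and 8 of 9 had log2 fold changes above 0. The part of these cell types in the guidance gene values was not tested. In bulk tissue, fewer cells of a type and less RNA per cell cannot be told apart.

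The replicate spread of the guidance genes differed between groups. The median coefficient of variation was 6.28% over the 3 P213L samples and 26.3% over the 4 WT samples, or 9.63% over the 3 WT samples without replicate 3. Within WT, replicate 1 was the highest sample for 39 of the 69 genes, or 56.5%, against 31.1% of all tested genes. For 10 of the 69, it lay above every P213L sample while WT replicates 2, 3 and 4 lay below every P213L sample: Sema4b, Sema4f, Sema5b, Sema6b, Sema6c, Ntng2, Plxnb1, Epha8, Epha10 and Robo3. Without WT replicate 1, 30 of the 69 genes had P213L values above all WT values (background 18.5%) and 0 had them below (background 6.47%). At an unadjusted limma p under 0.05, 12 were higher (background 6.69%) and 0 lower (background 2.26%), with 0 past adjustment. In WT replicate 1 the 11 markers of striatal neurons summed to 918.8 TPM, against 734.6 to 788.4 TPM in the other libraries. Their part in its guidance gene values was not tested.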

How the data were processed

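RNA from fresh cortex was extracted with TRIzol and made into libraries with a stranded TruSeq mRNA kit, as the labels' protocols state. The submitters' processing notes name HISAT2, HTSeq and mm10. No version of either is given in what was used here. The authors deposited TPM values, and each column sums to about 1000000 TPM. The deposited unit keeps no read totals, so no count test was possible.

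The 17582 genes whose 7-sample mean reached 1 TPM were tested on log2(TPM + 0.5) with limma 3.58.1 (trend, two-sided, R 4.3.3), with Benjamini-Hochberg adjustment over all of them and a threshold of 0.05. Fold changes are on that scale and understate changes of low genes. Exact permutation tests (two-sided) over all 35 arrangements stand beside limma for single genes. Simulated data were used to test the fit. Coordinates and exon lengths are from GENCODE vM21 (mm10), matched by symbol. Genes were named if they passed a threshold, had groups that did not overlap, ranked in the top 3 of a family by level, lay under the filter, or had the 3 smallest p in an effector list. Guidance genes that met none of these rules were named too, with their family. The members and lists were chosen with earlier results of these data known. Alternatives were other pseudocounts, filters, scalings, fits and left-out samples. Removing a trend on exon length, and leaving out WT replicate 3 with median-of-ratios scaling, were chosen after seeing the data. Figures were drawn with matplotlib 3.10.9.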

Additional observations from a re-analysis of the deposited data

Results flagged for a closer look

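Of 87 measures looked at in the 4 WT samples (single genes and family sums), 19 had 1 sample far from the others by Dixon's test, and chance flags about 1 in 20 such groups. In 18 of the 19 the sample was WT replicate 3, always low: 7 genes and 11 sums that share those and other genes. Plxna1 stood at 43.5 TPM there (150.5 to 164.4 TPM in the other WT samples), Slit3 at 5.47 TPM (18.8 to 20.9 TPM) and Ephb2 at 12.4 TPM (29.0 to 31.9 TPM). Sema6a stood at 17.6 TPM (38.2 to 41.5 TPM), Plxnc1 at 16.9 TPM (35.9 to 38.2 TPM), Ntng1 at 7.74 TPM (11.3 to 11.8 TPM) and Efnb3 at 232.0 TPM (350.6 to 362.1 TPM).

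Among the ligand sums, WT replicate 3 held 50.5 TPM for class 3 semaphorins (70.7 to 72.2 TPM in the other WT samples), 17.1 TPM for class 5 (41.1 to 43.6 TPM), 301.5 TPM for ephrin-B (456.5 to 469.5 TPM) and 428.8 TPM for all ephrins (622.0 to 651.8 TPM). It held 40.3 TPM for Slits (89.1 to 97.0 TPM) and 34.0 TPM for netrins (52.7 to 54.2 TPM). Among the receptor sums it held 100.8 TPM for plexin-A (303.7 to 328.3 TPM), 172.4 TPM for EphA (295.0 to 297.5 TPM), 51.5 TPM for Robo (108.9 to 112.5 TPM), 70.0 TPM for Dcc and Unc5 (135.9 to 137.5 TPM) and 693.4 TPM for all receptors (1431 to 1557 TPM). The remaining measure was Sema6c, at 98.0 TPM in WT replicate 1 and 62.4 to 66.3 TPM in the other WT samples.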

How the results depend on the processing

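No guidance gene passed the adjusted threshold in limma under the alternatives run, except with sample weights, where 29 did (22.6% of all genes). At an unadjusted p under 0.05, 5 genes were higher with all samples, against 2 with no filter on low values (2.48% of all genes), 28 with sample weights (21.6%), 11 without WT replicate 3 and with median-of-ratios scaling (4.65%), and 0 to 12 when single samples were left out (0.904% to 6.69%). Genes lower at that p numbered 0 with all samples (1.38% of all genes) and 8 with sample weights (18.1%). They numbered 1 without WT replicate 3 and with median-of-ratios scaling (4.03%), and 0 to 1 with single samples left out (0.609% to 3.99%). Fold changes lay above 0 for 64 genes with all samples (63.4% of all genes). The count was 42 without WT replicate 3 and with median-of-ratios scaling (49.3%), and ran from 42 to 67 with single samples left out (49.6% to 65.8%). Genes with all P213L values above all WT values numbered 10 with all samples (5.94% of all genes) and 10 to 30 with single samples left out (7.33% to 18.5%). The reverse order was seen for 1 gene with a trend on exon length removed (Sema3a, where 4.65% of all genes had it). It was seen for 1 without WT replicate 3 and with median-of-ratios scaling (Epha4, 6.96%), and for 0 to 1 with single samples left out (3.88% to 6.89%). The cause of these moves was not tested.

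Same-numbered P213L and WT samples deviated from their group means with correlations of 0.128, 0.17 and -0.101. These were not set against samples of different numbers, and the labels give no litter, so whether replicate numbers pair the samples is unknown. With the replicate block, 0 genes were higher at an unadjusted p under 0.05 (1.76% of all genes), and 3 with the block and median-of-ratios scaling (1.6%). Epha4 reversed, with a log2 fold change of 0.0691 with the replicate block and a range of -0.245 to 0.0691 with single samples left out. P213L has no replicate 4, so WT replicate 4 does not enter fold changes under the block. The Epha4 value with the block was thus the same as without WT replicate 4. For the 25 genes recomputed under each alternative, 520 values kept their direction and side of the threshold, and 24 passed it under sample weights. Apart from Epha4, these genes were picked for separate groups or small p values with all samples. Groups that do not overlap keep their direction when a sample is left out, so the 520 is no measure of how stable guidance genes are. Over all 69 guidance genes, 22 had a log2 fold change above 0 with all samples and below 0 without WT replicate 3, among them Dcc (-0.18), Robo2 (-0.11), Plxna4 (-0.09), Sema6a (-0.06) and Sema7a (-0.02). TPM gives no depth, so what depth limits is unknown.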
